A study of Homo sapiens with 4 samples.

Results

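The 10 genes described here are HIST1H3A to HIST1H3J, the replication-dependent histone H3 genes of the large histone cluster on human chromosome 6. They were taken by their GENCODE release 29 symbols from 16292 transcripts listed in at least 1 of 4 ribosome profiling libraries, and each was found once. The set was chosen by the RPKM ratios of these same libraries, in which copies alike in sequence moved unlike one another, so the values below are a description and carry no test. Ribosome profiling (Ribo-seq) sequences the mRNA fragments, or footprints, that ribosomes protect from nuclease. The cells were HEK293, an established human embryonic kidney line, and the 4 groups were RPL4 mutant with erythromycin, RPL4 mutant without erythromycin, wild type with erythromycin and wild type without erythromycin, with 1 library each. RPL4, a large-subunit ribosomal protein, forms part of the wall of the exit tunnel, and erythromycin is a macrolide antibiotic that binds this tunnel in bacterial ribosomes. Per the labels' protocols, the study used HEK293 stable lines expressing GFP, wild type RPL4 or a Δloop mutant of RPL4, infected with lentivirus carrying either a hairpin that targets RPL4 or a scramble control. The labels do not say which line and which hairpin each library had, whether cycloheximide or lactimidomycin was used for it, or at what dose erythromycin was given.

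Histone H3 pairs with H4 in the core of the nucleosome, around which DNA is wrapped. Replication-dependent histone genes are copied and translated mainly in S phase, when new DNA has to be packaged, and their mRNAs have no introns and end in a stem-loop in place of a poly(A) tail. Vertebrates keep many copies of these genes in clusters, and the copies of H3 in this cluster encode one protein, H3.1, while their coding sequences differ at synonymous positions.

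All 10 members had a coding sequence of 411 bases in 1 exon, and all 10 encoded the same protein of 136 residues. The coding sequences had the same base at 275 of the 411 positions. Over the 45 pairs of members, identity ran from 81.0% for HIST1H3B and HIST1H3J to 88.1%, a value reached by 3 pairs, with a median of 85.4%. The first 60 coding bases of each member are given because they show how far the copies can be told apart by a footprint. Sequences and positions are from GENCODE release 29 on GRCh38, run 5′ to 3′ on the coding strand, and have in capitals each base unlike that of HIST1H3B.
HIST1H3A, chr6:26020490-26020549, plus strand: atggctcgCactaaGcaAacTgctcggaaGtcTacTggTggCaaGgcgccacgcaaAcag
HIST1H3B, chr6:26032001-26032060, minus strand: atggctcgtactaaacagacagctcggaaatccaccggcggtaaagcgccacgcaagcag
HIST1H3C, chr6:26045411-26045470, plus strand: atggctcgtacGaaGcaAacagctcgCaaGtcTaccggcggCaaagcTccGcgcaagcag
HIST1H3D, chr6:26197191-26197250, minus strand: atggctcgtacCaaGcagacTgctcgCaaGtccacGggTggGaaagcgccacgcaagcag
HIST1H3E, chr6:26225155-26225214, plus strand: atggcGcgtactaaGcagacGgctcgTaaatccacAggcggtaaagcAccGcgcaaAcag
HIST1H3F, chr6:26250546-26250605, minus strand: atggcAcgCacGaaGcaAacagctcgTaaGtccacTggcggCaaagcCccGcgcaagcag
HIST1H3G, chr6:26271325-26271384, minus strand: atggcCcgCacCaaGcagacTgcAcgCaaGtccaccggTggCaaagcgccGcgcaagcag
HIST1H3H, chr6:27810074-27810133, plus strand: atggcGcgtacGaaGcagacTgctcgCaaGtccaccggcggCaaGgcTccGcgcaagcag
HIST1H3I, chr6:27872256-27872315, minus strand: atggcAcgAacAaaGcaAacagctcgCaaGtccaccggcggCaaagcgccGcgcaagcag
HIST1H3J, chr6:27890733-27890792, minus strand: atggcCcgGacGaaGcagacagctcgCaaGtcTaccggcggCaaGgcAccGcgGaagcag
Between 8 and 12 of these 60 bases differed from HIST1H3B in the other 9 members. The differences from HIST1H3B lay a few bases apart, so a footprint from this stretch generally crosses several of them. Between other members it can cross fewer, as the lines of HIST1H3C and HIST1H3I show. Over the whole coding sequence of each member, a footprint-sized stretch of 28 bases had a median of 2 mismatches to the nearest other H3 coding sequence.

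A footprint was represented by a window of 28 bases, and each of the 384 windows of a coding sequence was looked up in all reference transcripts. HIST1H3J had 382 windows found at no other locus and HIST1H3A had 380. HIST1H3D had the fewest, 335, and HIST1H3B, HIST1H3F and HIST1H3C had 342, 337 and 346. HIST1H3G, HIST1H3E, HIST1H3H and HIST1H3I had 367, 362, 360 and 355. A second gene model, AL031777.3, is annotated over the whole HIST1H3D coding sequence; with it counted as another gene, HIST1H3D had 0 windows of its own. Pooled over the 10 members, 84.1% of windows occurred in no other annotated gene, and 92.9% at no other locus. Most windows were nevertheless close to another copy, since only 29.5% differed by more than 2 bases from every other H3 coding sequence considered.

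The pair with the most windows in common was HIST1H3B and HIST1H3C, with 35. Next came HIST1H3D with HIST1H3I (19 windows), and HIST1H3F with HIST1H3D and with HIST1H3H (16 windows each). The longest run shared by HIST1H3B and HIST1H3C covers coding positions 253 to 300. It is shown with the same positions of HIST1H3F, HIST1H3H and HIST1H3I, members described in detail below, and capitals again mark bases unlike HIST1H3B.
HIST1H3B, chr6:26031761-26031808, minus strand: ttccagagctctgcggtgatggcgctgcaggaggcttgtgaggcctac
HIST1H3C, chr6:26045663-26045710, plus strand: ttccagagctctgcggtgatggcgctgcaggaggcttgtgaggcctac
HIST1H3F, chr6:26250306-26250353, minus strand: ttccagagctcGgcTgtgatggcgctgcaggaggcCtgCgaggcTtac
HIST1H3H, chr6:27810326-27810373, plus strand: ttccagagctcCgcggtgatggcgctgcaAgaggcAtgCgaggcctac
HIST1H3I, chr6:27872016-27872063, minus strand: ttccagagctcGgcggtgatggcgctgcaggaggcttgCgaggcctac
Over these 48 bases HIST1H3I differed from HIST1H3B at 2 positions, HIST1H3H at 4 and HIST1H3F at 5.

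**Figure D1:**
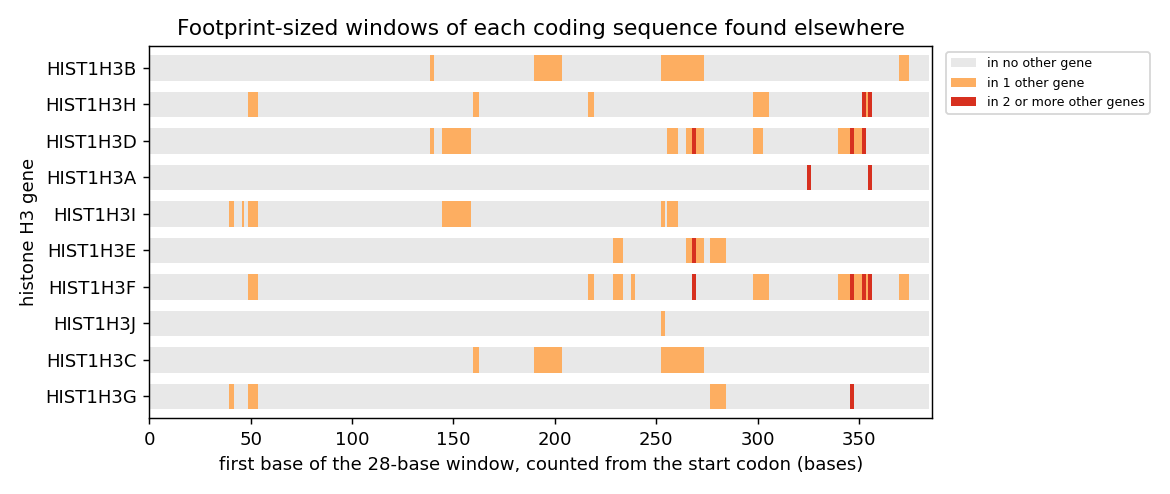
Sharing of footprint-sized windows among the H3 genes. The x axis gives the first base of each 28-base window counted from the start codon, each row is 1 gene in order of mean level, and colour shows in how many other genes the window occurs; AL031777.3 is not counted. Shared stretches are short, and the widest unbroken block, with window starts from 253 to 273, is common to HIST1H3B and HIST1H3C.

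The libraries held 993461 reads in the mutant with erythromycin, 604506 in the mutant without it, 2555613 in wild type with erythromycin and 2965243 in wild type without it. One read on an H3 coding sequence was worth 2.45, 4.02, 0.952 and 0.821 RPKM in the same order of libraries, so low members are measured more coarsely in the mutant. RPL4 itself, the gene named in the genotype, had 1439, 1707, 2586 and 2515 RPKM in that order, lower in both mutant libraries. VIM, KRT8, KRT18 and NEFL, expressed in HEK293 cells, had 43.6 RPKM or more in every library, while PAX2, LHX1 and NEFM had 7.42 RPKM or less. Of the markers of other cell types, PTPRC had no value, ALB, HBB and CD3E had 3.73 RPKM or less, and COL1A1 had 3.89 to 6.68 RPKM. No group has a second library, so there is no replicate spread. Intervals given below are 95% exact counting intervals, which cover counting error only and leave out variation between cultures.

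Together the 10 members held 6839 reads in the mutant with erythromycin and 3904 in the mutant without it, against 18644 in wild type with erythromycin and 26677 in wild type without it. These were 0.688% of the library (95% Wilson interval 0.672% to 0.705%), 0.646% (0.626% to 0.666%), 0.730% (0.719% to 0.740%) and 0.900% (0.889% to 0.910%). The share was highest in wild type without erythromycin, and no 2 of the 4 intervals overlapped. No total mRNA was measured in these groups, so footprints mix mRNA level and translation, and fewer cells in S phase and less H3 translation per cell cannot be told apart.

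The members differed widely in level. HIST1H3B had 8189.8 RPKM in the mutant with erythromycin, 8267 in the mutant without it, 10084 in wild type with erythromycin and 12365 in wild type without it. HIST1H3H followed with 7009 and 5816 RPKM in the mutant with and without erythromycin, and 5685 and 7088 RPKM in wild type with and without it. HIST1H3B was above HIST1H3H in every library, and these 2 genes took 90.7%, 89.6%, 88.8% and 88.9% of the reads on the 10 members, in the order mutant with erythromycin, mutant without, wild type with, wild type without.

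HIST1H3D had 806 and 853 RPKM in the mutant with and without erythromycin and 871 and 992 RPKM in wild type with and without it. HIST1H3A had 639 and 660.1 RPKM in the mutant, against 899.7 and 1095 RPKM in wild type, with the erythromycin library first in each genotype. The ranges of these 2 genes over the libraries overlapped, and their order differed between genotypes: HIST1H3D was the higher in both mutant libraries and HIST1H3A in both wild type libraries.

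The next 3 members had means over the libraries of 71.3 RPKM (HIST1H3I), 67.4 RPKM (HIST1H3E) and 41.9 RPKM (HIST1H3F), and their ranges overlapped. HIST1H3I had 4 and 5 reads (9.80 and 20.1 RPKM) in the mutant with and without erythromycin, against 100 and 195 reads (95.2 and 160.0 RPKM) in wild type with and without it. HIST1H3F had 13 and 2 reads (31.8 and 8.05 RPKM) in the mutant with and without erythromycin, against 47 and 101 reads (44.7 and 82.9 RPKM) in wild type with and without it. HIST1H3E had 24 and 15 reads (58.8 and 60.4 RPKM) in the mutant with and without erythromycin, against 66 and 107 reads (62.8 and 87.8 RPKM) in wild type with and without it. HIST1H3E was thus near-level over 3 libraries, while HIST1H3I was low in both mutant libraries and HIST1H3F was lowest in the mutant without erythromycin.

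The last 3 were close to the limit of detection. HIST1H3J had 1 and 4 reads in the mutant with and without erythromycin and 5 and 16 reads in wild type with and without it. HIST1H3C had 1 and 2 reads in the mutant and 3 and 6 in wild type, again with the erythromycin library first. HIST1H3G had 0 and 1 reads in the mutant with and without erythromycin and 0 and 2 in wild type with and without it; a count of 0 allows up to 3 reads as a one-sided 95% limit, which is 7.35 RPKM in the mutant with erythromycin and 2.86 RPKM in wild type with erythromycin. Of the 10 members, 8 averaged 5 RPKM or more and entered the ratios, and HIST1H3C and HIST1H3G did not. HIST1H3J had 16.1 and 13.1 RPKM without erythromycin in the mutant and wild type, against 2.45 and 4.76 RPKM with it. It passed the filter through the libraries without erythromycin, so its lower values with erythromycin are not independent of the filter.

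**Figure D2:**
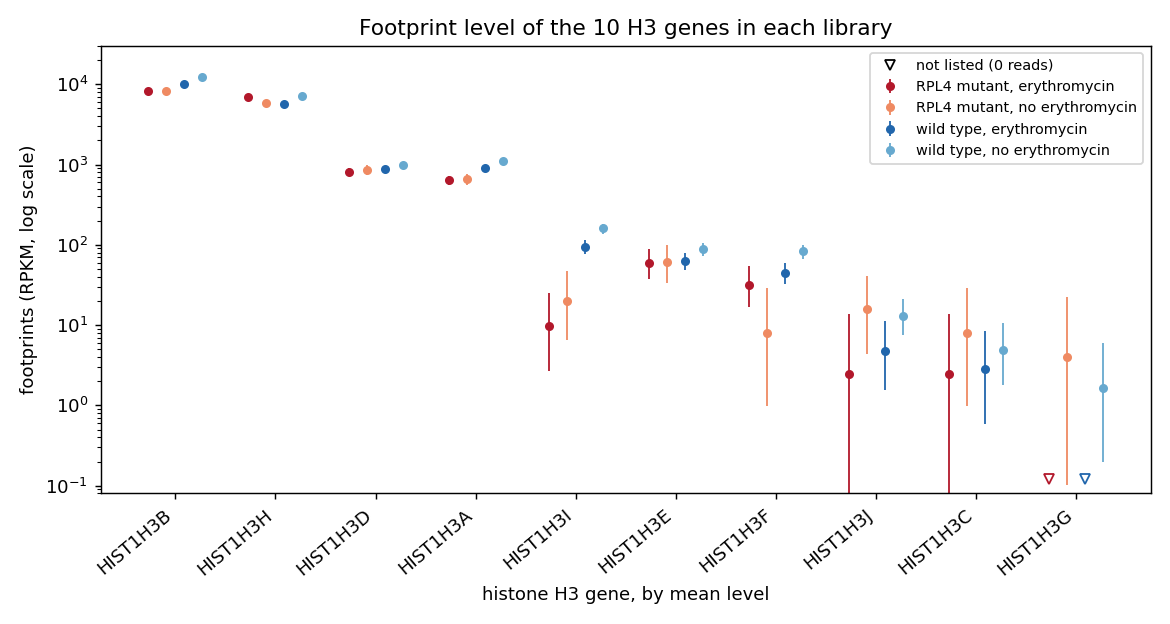
Level of each H3 gene in each library, in RPKM on a log axis. Points are single libraries, bars are 95% Poisson counting intervals, and open triangles at the bottom mark genes with 0 reads; HIST1H3B and HIST1H3H stand well above the rest, and HIST1H3I is lower in both mutant libraries (9.80 and 20.1 RPKM) than in both wild type libraries (95.2 and 160.0 RPKM).

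The counts were set against what shared sequence could carry over between copies. If the reads of HIST1H3B lay evenly along its coding sequence and those over the 35 windows common to HIST1H3C were divided equally between the 2 genes, HIST1H3C would have been given 152 and 93.6 reads in the mutant with and without erythromycin, and 483 and 687 in wild type with and without it. It had 1, 2, 3 and 6. The same sum for HIST1H3H and HIST1H3F, with 16 common windows, gives HIST1H3F 59.6 and 30.1 reads in the mutant with and without erythromycin and 124 and 180 in wild type with and without it, each above the 13, 2, 47 and 101 reads found. For HIST1H3I and HIST1H3D, with 19 common windows, it gives HIST1H3I 8.14 and 5.24 reads in the mutant with and without erythromycin, against 4 and 5 found, and 22.6 and 29.9 in wild type with and without it, against 100 and 195 found. For HIST1H3I and HIST1H3H, with 5 common windows, it gives HIST1H3I 18.6 and 9.41 reads in the mutant with and without erythromycin, more than were found there, and 38.9 and 56.2 in wild type with and without it, fewer than were found. HIST2H3A and HIST2H3C, H3 genes of another cluster whose coding sequences are identical to each other and so have 0 windows of their own, had no value in any of the 4 libraries. How the authors counted reads that match several loci is not given in the sources used here, and its part in the levels of single members was not tested.

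Ratios between libraries are given as log2 of RPKM plus 1, centred on the median of the 9612 genes that averaged 5 RPKM or more. The bracketed interval is that of the ratio of reads after the same centring, and for genes with few reads the printed value need not sit at its middle. The pairs of libraries share libraries with one another, so the ratios of a gene in different pairs are not independent. An interval excludes 0 more readily the more reads a gene has. HIST1H3A, HIST1H3B, HIST1H3D and HIST1H3H had 164 reads or more in every library, where the median gene kept had 23 to 108. The shares of all genes with an interval off 0, given below, are thus not matched for reads to these members.

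With erythromycin against without it in the mutant, 2 of the 8 members were at least 2-fold lower and 1 was at least 2-fold higher, where 3.39% and 6.22% of all genes kept were (9.61% in either direction). All 3 of these members had 5 reads or fewer in at least 1 of the mutant libraries: HIST1H3J at −2.36 [−8.39, 0.57], HIST1H3I at −1.02 [−3.42, 1.12] and HIST1H3F at 1.81 [−0.21, 5.12]. Their intervals all included 0, so at this depth no difference was detectable. The one member whose interval lay off 0 was HIST1H3H, at 0.22 [0.12, 0.31], while an interval above 0 was found for 7.22% and one below 0 for 7.69% of 9469 genes whose reads were recovered in all libraries. HIST1H3B was at −0.07 [−0.15, 0.01], and HIST1H3A, HIST1H3D and HIST1H3E were between −0.14 and −0.09 with intervals that included 0. The median of the 8 members was −0.09, against 0 for all genes kept.

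With erythromycin against without it in wild type, all 8 members had values below 0, between −1.28 and −0.17, with a median of −0.38 against 0 for all genes kept. The interval lay below 0 for 7 of the 8, where it did for 13.9% of 9469 genes, and above 0 for 0 of the 8, where it did for 14.2%. HIST1H3B was at −0.28 [−0.31, −0.24] and HIST1H3H at −0.30 [−0.35, −0.26], so the 2 most-read copies had nearly the same ratio. HIST1H3F, at −0.86 [−1.41, −0.36], and HIST1H3I, at −0.73 [−1.10, −0.38], had lower values with intervals that lay below that of HIST1H3B. HIST1H3J was the 1 member at least 2-fold lower, at −1.28 [−3.25, 0.07] on 5 and 16 reads, and 0 were at least 2-fold higher; 1.54% and 1.73% of all genes kept were (3.27% in either direction).

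With erythromycin present, the mutant against wild type gave 1 member at least 2-fold lower and 0 higher, where 2.26% and 7.02% of all genes kept were (9.28% in either direction). That member was HIST1H3I, at −3.22 [−5.25, −1.94] on 4 and 100 reads. HIST1H3A was at −0.55 [−0.76, −0.36] and HIST1H3B at −0.36 [−0.42, −0.31], and these made 3 members with intervals below 0, against 16.9% of 9469 genes. HIST1H3H was on the other side of 0, at 0.24 [0.17, 0.30], against intervals above 0 for 16.1% of genes. HIST1H3D, HIST1H3E, HIST1H3F and HIST1H3J had values between −0.80 and −0.16 with intervals that included 0. The median of the 8 members was −0.45.

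Without erythromycin, the mutant against wild type gave 2 members at least 2-fold lower and 0 higher, where 3.32% and 5.29% of all genes kept were (8.6% in either direction). These were HIST1H3F, at −3.19 [−6.40, −1.45] on 2 and 101 reads, and HIST1H3I, at −2.90 [−4.60, −1.72] on 5 and 195 reads. HIST1H3A was at −0.70 [−0.95, −0.47], HIST1H3B at −0.56 [−0.62, −0.49] and HIST1H3H at −0.26 [−0.34, −0.18], so that 5 members had intervals below 0, against 9.3% of 9469 genes, and 0 had one above 0, against 9.49%. HIST1H3D, at −0.19 [−0.41, 0.02], and HIST1H3E, at −0.51 [−1.40, 0.27], had intervals that included 0, as had HIST1H3J at 0.30 [−1.72, 1.95]. The median of the 8 members was −0.53.

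**Figure D3:**
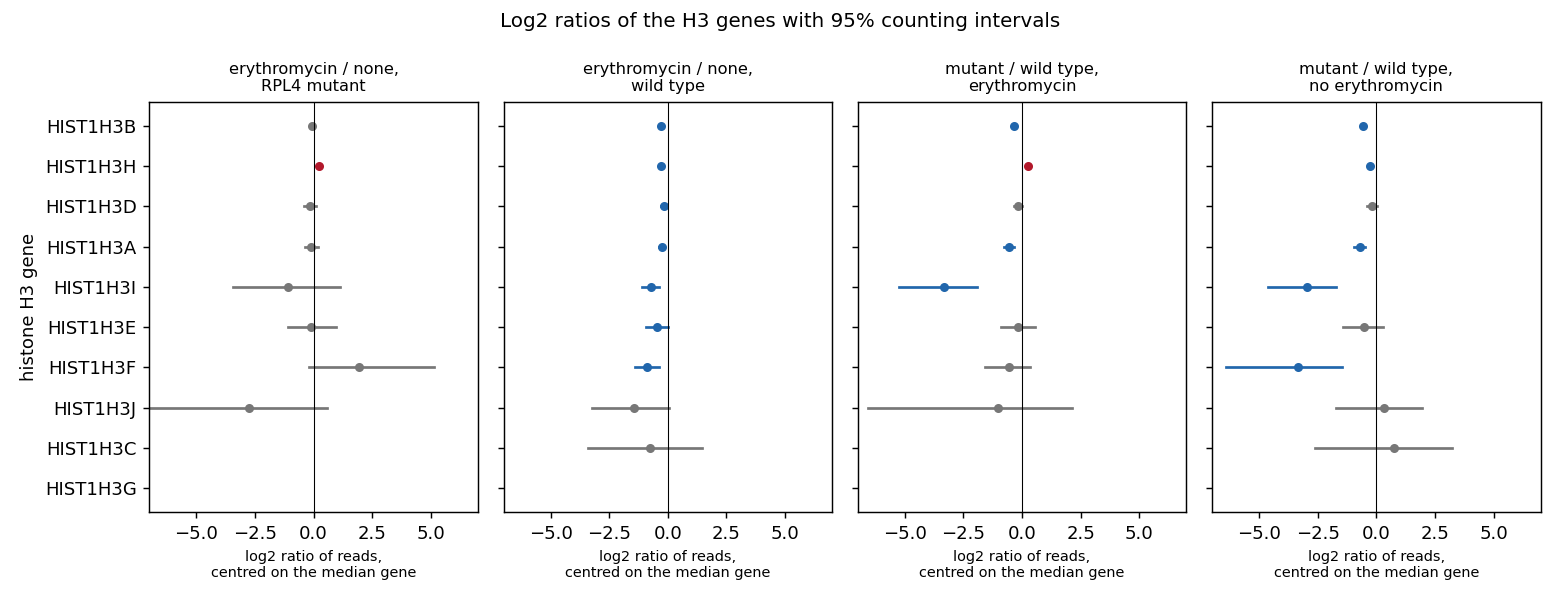
Log2 ratios of reads for each H3 gene in 4 pairs of libraries, centred on the median gene, with 95% exact counting intervals as lines (cut at 7 in either direction). Red marks an interval above 0, blue one below 0 and grey one that includes 0; ratios with 3 reads or fewer in both libraries are not drawn. HIST1H3H is the gene in red, at 0.22 and 0.24, and HIST1H3I is far below 0 in both pairs of mutant against wild type.

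HIST1H3I was the member with the same low standing in both mutant libraries. Together with HIST1H3F it took 0.249% and 0.179% of the reads on the 10 members in the mutant with and without erythromycin, against 0.788% and 1.11% in wild type with and without it. For HIST1H3F the ratio of the mutant to wild type with erythromycin, −0.54 [−1.56, 0.36], had an interval that included 0, unlike that of HIST1H3I. The difference of the erythromycin ratios, mutant minus wild type, was 2.67 for HIST1H3F, with an interval for the reads alone of 0.55 to 6.03, and it rests on the 2 reads of the mutant without erythromycin.

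HIST1H3H and HIST1H3B, the copies with the most reads, were not in the same proportion in every library. For each read on HIST1H3B there were 0.856 reads on HIST1H3H in the mutant with erythromycin, 0.704 in the mutant without it, 0.564 in wild type with erythromycin and 0.573 in wild type without it. This ratio within a library depends neither on the library total nor on the centring. On the log2 scale it was higher by 0.28 [0.16, 0.41] with erythromycin than without it in the mutant, and differed by −0.02 [−0.08, 0.04] in wild type. It was higher in the mutant than in wild type both with erythromycin, by 0.60 [0.52, 0.69], and without it, by 0.30 [0.19, 0.40]. HIST1H3H accordingly took 41.8% (40.7% to 43.0%, Wilson) and 37.0% (35.5% to 38.5%) of the reads on the members in the mutant with and without erythromycin, against 32.0% (31.4% to 32.7%) and 32.4% (31.8% to 32.9%) in wild type with and without it.

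**Figure D4:**
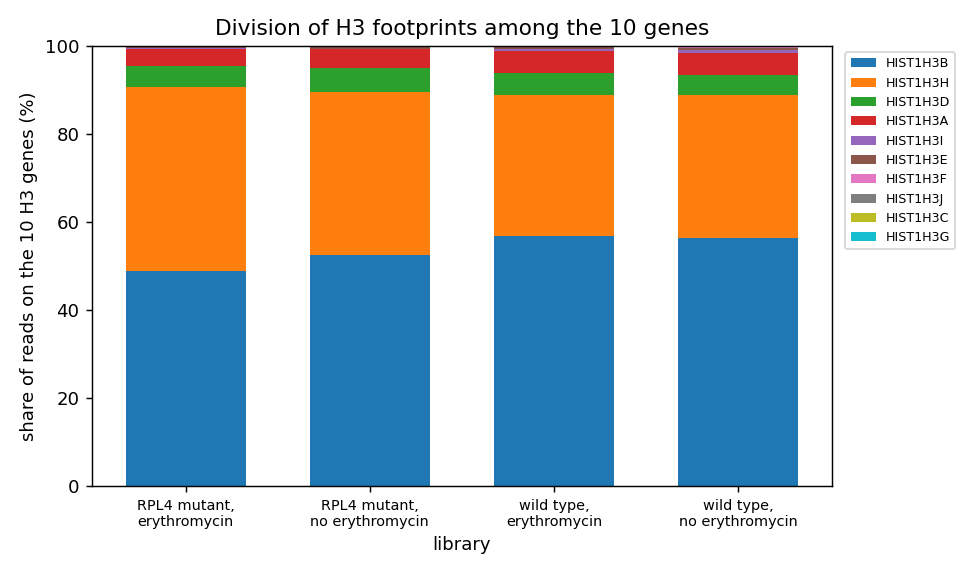
Share of the reads on the 10 H3 genes taken by each gene, in percent, with 1 stacked bar per library. HIST1H3B is the largest part of each bar, and HIST1H3H takes 41.8% in the mutant with erythromycin and 32.4% in wild type without it.

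The erythromycin ratio of HIST1H3H was higher in the mutant than in wild type by 0.52 [0.42, 0.62] and that of HIST1H3B by 0.21 [0.13, 0.30]. For HIST1H3A, HIST1H3D, HIST1H3E, HIST1H3I and HIST1H3J the interval of this difference included 0. HIST1H3H was the member whose ratios had intervals on opposite sides of 0 in the 2 genotypes. Such a pattern, above 0 in the mutant and below 0 in wild type, was found for 1.16% of 9469 genes. The mutant against wild type, read with and without erythromycin, had intervals above 0 and below 0 for HIST1H3H and for 0.528% of those genes.

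Summed over the 10 members, a measure that does not depend on how reads were divided among these members, though it does on reads dropped, counted more than once or given to other genes, reads were at 0.04 [−0.02, 0.10] with erythromycin against without it in the mutant and at −0.29 [−0.31, −0.26] in wild type. The mutant against wild type was at −0.15 [−0.19, −0.11] with erythromycin and at −0.45 [−0.50, −0.40] without it. Without HIST1H3B, the value with erythromycin was 0.10 [0.04, 0.15] for the other 9 members together. HIST1H3H, at 0.24, held 2862 of the 3495 reads of these 9 in the mutant with erythromycin. In that pair, 7 of the 8 members kept had values below 0. Without HIST1H3B and HIST1H3H, the 8 remaining members were at −0.42 [−0.55, −0.29] with erythromycin and −0.55 [−0.71, −0.40] without it.

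The other core and linker histone genes of the cluster were summed in the same way. In wild type, erythromycin against none was at −0.15 [−0.18, −0.12] for 11 HIST1H2A genes, −0.17 [−0.20, −0.15] for 15 HIST1H2B genes, 0.01 [−0.02, 0.03] for 11 HIST1H4 genes and 0.02, with an interval that included 0, for 6 HIST1H1 genes, all nearer 0 than H3. In the mutant the 4 classes were between 0.00 and 0.08, near the 0.04 of H3. The mutant against wild type without erythromycin was between −0.28 and −0.16 for the 4 classes, against −0.45 for H3. With erythromycin it was between −0.25 and 0.03. The sums do not show the ratios of single copies. For erythromycin in the mutant, single genes kept ran from −0.23 to 4.02 for HIST1H2B and from −2.45 to 0.17 for HIST1H4. They ran from −0.46 to 0.47 for HIST1H2A and from −0.74 to 0.13 for HIST1H1, against −2.36 to 1.81 for H3. For the mutant against wild type without erythromycin, HIST1H2B ran from −3.72 to 0.03, against −3.19 to 0.30 for H3. A wide range of ratios was thus not particular to H3. These ranges include genes with few reads and were not matched for reads between classes. For erythromycin in the mutant, the H3 ends were HIST1H3J, on 1 and 4 reads, and HIST1H3F, on 13 and 2. HIST1H3A, HIST1H3B, HIST1H3D and HIST1H3H, on 164 reads or more, were between −0.14 and 0.22 there.

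Of the H3 genes outside the cluster, H3F3A, which encodes the replication-independent variant H3.3, had 3265 and 3059 RPKM in the mutant with and without erythromycin and 3720 and 4104 RPKM in wild type with and without it. H3F3B, a second H3.3 gene, had 847 and 885 RPKM in the mutant and 1211 and 1046 RPKM in wild type, with the erythromycin library first. HIST2H3D, a replication-dependent H3 gene on another chromosome, had 93.1 and 137 RPKM in the mutant and 149 and 185 RPKM in wild type in the same order. Its ratio for erythromycin was −0.60 [−1.32, 0.10] in the mutant and −0.30 [−0.61, −0.004] in wild type. For the mutant against wild type it was −0.73 [−1.29, −0.22] with erythromycin and −0.41 [−0.98, 0.11] without it. For erythromycin in wild type, H3F3A was at −0.13 [−0.19, −0.07] and H3F3B at 0.23 [0.11, 0.34]. The mutant against wild type was below 0 for H3F3A both with erythromycin, at −0.25 [−0.34, −0.16], and without it, at −0.40 [−0.51, −0.29], and so was that of H3F3B, at −0.58 [−0.75, −0.40] and −0.21 [−0.43, −0.01]. H3F3C, an H3.3-like gene, had 23 and 24 reads (56.7 and 97.3 RPKM) in the mutant with and without erythromycin and 91 and 44 reads (87.3 and 36.4 RPKM) in wild type with and without it. For the mutant against wild type without erythromycin it was at 1.42 [0.66, 2.19], where 7 of the 8 members were below 0. For erythromycin in wild type it was at 1.26 [0.74, 1.83], where all 8 were below 0. CENPA, the centromeric H3 variant, was at −0.08 [−0.74, 0.55] with and −0.82 [−1.74, −0.03] without erythromycin for the mutant against wild type. HIST3H3 and HIST2H3PS2 had at most 11 reads in any library.

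Genes that process, escort or degrade histone mRNA or supply histones to chromatin, among them SLBP, which binds the stem-loop, ASF1B and NASP, histone chaperones, and UPF1, a helicase of histone mRNA decay, were listed for comparison, and 20 of 23 entered the ratios. Their medians were −0.21 in the mutant and 0.00 in wild type for erythromycin against none, and −0.24 with and −0.05 without erythromycin for the mutant against wild type. Single genes lay far from these medians. For the mutant against wild type with erythromycin, 6 of 20 intervals lay below 0 and 3 above, where 16.9% and 16.1% of 9469 genes had one. Without erythromycin 2 lay below 0 and 3 above, where 9.3% and 9.49% of genes had one. For erythromycin in the mutant, LSM10 was at −1.16 [−2.40, −0.01] on 12 and 16 reads. LSM11 was at 1.16 [0.002, 2.67] there, on 28 and 7 reads. SYMPK, the scaffold symplekin of mRNA 3′ end processing, had 1133 and 1304 reads (298 and 564 RPKM) in the mutant with and without erythromycin and 2457 and 1226 reads (251 and 108 RPKM) in wild type with and without it. Its ratio was −0.97 [−1.09, −0.86] for erythromycin in the mutant and 1.22 [1.13, 1.33] in wild type, and for the mutant against wild type 0.18 [0.08, 0.29] with erythromycin and 2.40 [2.30, 2.52] without it. The 15 S phase genes listed included PCNA, the MCM helicase subunits and the ribonucleotide reductase subunits RRM1 and RRM2. Their medians were −0.10 and 0.07 for erythromycin in the mutant and in wild type. In the mutant, 6 of 15 intervals lay below 0 and 0 above, where 7.69% and 7.22% of 9469 genes had one. In wild type 5 lay below 0 and 3 above, where 13.9% and 14.2% of genes had one. For the mutant against wild type with erythromycin the median was −0.42, with 10 of 15 intervals below 0, where 16.9% of 9469 genes had one. Without erythromycin it was −0.16, with 6 of 15 below 0, where 9.3% of genes had one. E2F1, a transcription factor of the G1 to S transition, went the other way for the mutant against wild type with erythromycin, at 1.12 [0.61, 1.73]. It was the 1 interval above 0 and the 1 gene at least 2-fold higher there. E2F1 had 40.6 and 32.7 RPKM in the mutant with and without erythromycin and 17.3 and 31.6 RPKM in wild type with and without it. Its ratio was −0.82 [−1.33, −0.39] for erythromycin in wild type. For the mutant against wild type without erythromycin it was 0.08 [−0.59, 0.70]. The part of the S phase genes in the H3 values was not tested.

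The nearest annotated histone gene of each member was compared after the values were seen. HIST1H2AI, an H2A gene 1373 bases from HIST1H3H, had 1268 and 884 RPKM in the mutant with and without erythromycin and 638 and 742 RPKM in wild type with and without it, on 210 reads or more. HIST1H2AI had its highest level in the mutant with erythromycin. HIST1H3H had its highest share of H3 reads there, but its highest level in wild type without erythromycin (7088 against 7009 RPKM). The ratios of HIST1H2AI were 0.47 and −0.20 for erythromycin in the mutant and in wild type. For the mutant against wild type they were 0.93 with and 0.28 without erythromycin. Those of HIST1H3H were 0.22, −0.30, 0.24 and −0.26 in the same order, so the 2 genes had opposite signs in the last. HIST1H2AI shares most of its coding sequence with other annotated genes, with 57 of its 366 windows found in no other gene, so its count is uncertain. HIST1H4L, an H4 gene 884 bases from HIST1H3I, had 3.23 and 10.6 RPKM in the mutant with and without erythromycin and 5.02 and 16.2 RPKM in wild type with and without it, at most 15 reads. HIST1H2AB, an H2A gene 1116 bases from HIST1H3B, had 1258 and 1225 RPKM in the mutant with and without erythromycin and 1381 and 1614 RPKM in wild type with and without it, the order of libraries being close to that of HIST1H3B. HIST1H2AM, an H2A gene 1965 bases from HIST1H3J, was near-level, with 211 reads or more and ratios of −0.20 and −0.11 for erythromycin in the mutant and in wild type and −0.19 and −0.08 with and without erythromycin for the mutant against wild type, beside −2.36, −1.28, −0.80 and 0.30 for HIST1H3J on 1 to 16 reads. HIST1H4A, beside HIST1H3A, was at −0.03, −0.13, −0.44 and −0.52 in the same order, HIST1H2AD, beside HIST1H3D, at −0.02, −0.11, −0.04 and −0.12, and HIST1H2AE, beside HIST1H3E, at −0.13, −0.21, −0.14 and −0.20. The neighbours of HIST1H3C, HIST1H3F and HIST1H3G had at most 26 reads in any library.

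By the distance between centred log2 levels over the 4 libraries, the genes most like the summed H3 members were ISOC2, RPA2, SLC35B2, SF3B6 and PSMD8, at 0.03 to 0.04 among 5558 genes averaging 20 RPKM or more. ISOC2, the nearest, had 135 and 127 RPKM in the mutant with and without erythromycin and 140 and 175 RPKM in wild type with and without it. RPA2, the next, had 142 and 137 RPKM in the mutant and 152 and 187 RPKM in wild type in the same order.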

How the data were processed

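Footprint libraries of 4 groups were used, 1 library each. The deposited files hold RPKM values per transcript made by the authors; cutadapt, STAR and GRCh38 are named in the submitters' processing notes without roles or versions, and no source used here gives the counter or the annotation. A transcript absent from a library was read as 0. RPKM times GENCODE release 29 coding length and library total was a whole number of reads within 0.001 for 99.2% of matched values in each library, which gave the totals and reads used here; the median gene kept had 40, 23, 91 and 108 reads in the mutant with and without erythromycin and wild type with and without it. No count test was run because no group has a replicate. Ratios are log2(RPKM + 1), for genes averaging 5 RPKM or more, a scale that understates changes of low genes, centred on the median gene; the largest centre subtracted was 0.06. Read ratios have exact conditional binomial intervals (95%). Reads are not independent molecules. Ratios and intervals were tested on simulated reads that varied by counting error only. That test checks the calculation and does not cover variation between cultures or reads shared between copies. Python 3.11.15 with numpy 2.4.6, scipy 1.17.1, biopython 1.88 and matplotlib 3.10.9 was used.

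The members and gene lists were chosen with earlier results of these data known. Named genes were the 10 members, the other H3 genes, sums of the other HIST1 classes, 23 histone mRNA and supply factors, 15 S phase genes, RPL4, cell markers, and the 5 genes nearest in level pattern. Some named genes are given only in counts or ranges. Alternatives changed the pseudocount, filter, centring, total, read minimum, members summed, window length and mismatches.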

Additional observations from a re-analysis of the deposited data

Results flagged for a closer look

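HIST1H3H stood out because its ratios had opposite signs within both comparisons. Erythromycin against none was 0.22 in the mutant and −0.30 in wild type, on the centred log2 scale. The mutant against wild type was 0.24 with erythromycin and −0.26 without it. These are the same 4 libraries read in 2 ways. Each group had 1 library, so the difference was not tested against replicates. Counting intervals lay on opposite sides of 0 in this direction for 1.16% of 9469 genes in the first reading and for 0.528% in the second. These shares are over genes of all read levels, and HIST1H3H had 1445 reads or more in every library.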

How the results depend on the processing

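With 1 library per group, no replicate could be left out. No paired analysis was possible because each group has 1 library. Of 220 ratios of single members under alternatives, 216 stayed within the counting interval and 0 changed sign. Low members have wide intervals, so staying within them says little. The 4 outside were all for the mutant against wild type with erythromycin, in the 2 most-read members. HIST1H3B, at −0.36, was −0.25 for genes averaging 20 RPKM or more. It was −0.30 both without centring and with a total that leaves out the 20 most-read transcripts. HIST1H3H, at 0.24, was 0.35 for genes averaging 20 RPKM or more. The number of members at or beyond 2-fold depended on the low ones. For erythromycin in the mutant it was 3, and 5 without a filter, 1 for genes averaging 20 RPKM or more and 0 with at least 20 reads in both libraries. In wild type it was 1, and 2 without a filter and 0 with a pseudocount of 5 RPKM, the stricter mean or the read minimum. For the mutant against wild type the read minimum gave 0 in place of 1 with erythromycin and 0 in place of 2 without it. The summed H3 ratio of the mutant against wild type with erythromycin, −0.15, was −0.19 without a filter, −0.034 at the stricter mean, −0.084 without centring, −0.086 with a total that leaves out the 20 most-read transcripts, and 0.10, with the sign changed, without HIST1H3B. Without erythromycin it was −0.45, and −0.40 at the stricter mean and −0.33 without HIST1H3B. For erythromycin in the mutant it was 0.04, and 0.15 without HIST1H3B. The share of windows in no other annotated gene, 84.1%, was 81.8%, 86.0% and 88.1% for windows of 26, 30 and 34 bases, 29.5% with up to 2 mismatches, and 92.9% with genes of the same locus not counted, an alternative added after seeing the data. Per window found at no other locus, in place of per window, 12 levels (HIST1H3B, HIST1H3D and HIST1H3H in each library) moved beyond their counting interval.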
